A study of Mus musculus with 2 samples.

Results

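The genes of glycolysis and lactate handling were followed step by step through the liver cell types of 1 mouse given Ter119 and 1 mouse given saline. The set holds 33 genes, chosen by symbol with earlier results of these data known. Each of the 33 symbols was found among the 26078 genes of the files. Ter119 is an antibody that binds an antigen on mouse red cells, and by its title the series asks how the macrophages that live in the liver sinusoids, the Kupffer cells, change once they have taken up red cells. The Ter119 mouse had 1 dose of 35 ug under the skin and then 10 daily doses of 10 ug, and the Saline mouse had a like volume of saline. Both were C57BL/6J animals of 7 to 10 weeks with no transgene named in the labels, and the livers were collected at 24, a time after the final injection that is printed without its unit. Non-parenchymal cells were bound to beads through F4/80 and CD11b, tagged with hashtag antibodies and pooled, and transcripts were counted from their 3′ ends by unique molecular identifiers (UMIs). With 1 mouse and 1 library in each group there was no replicate and no test, so that the treatment cannot be told apart from the mouse or the library.

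The Ter119 library held 25760 barcodes and 61892074 UMIs (median 1854 per barcode), and the Saline library held 18354 barcodes and 97181787 UMIs (median 3523), beside a capture target of 10000 cells in the labels. Of these, 13846 Ter119 and 11572 Saline barcodes were kept, and 133 barcode sequences occurred in both libraries. Cells were put into types by a gate, that is a minimum share of UMIs from a list of marker genes, none of which is among the 33 genes. The Kupffer gate took 4589 Ter119 cells (median 3560 UMIs, 5.66% mitochondrial UMIs) and 9641 Saline cells (median 6737 UMIs, 7.33% mitochondrial UMIs). Each of the 14 Kupffer markers was detected in both groups, but 12 of them were lower in Ter119 cells (Slc40a1 least so, with a ratio of 0.907), among them Clec4f at 1061 in Ter119 and 5315 in Saline, and Timd4 at 25.8 in Ter119 and 577 in Saline (CPM, UMIs scaled to a library total of 1000000). Marco went the other way, with 4560 CPM in Ter119 and 847 CPM in Saline. The gate therefore rests on genes that differ between the groups, and 497 Ter119 and 85 Saline cells lay just below it, between 120 and 140 marker UMIs per 10000. A further 3257 Ter119 and 7 Saline barcodes passed both the Kupffer and the erythroid gate. They are called hemoglobin-rich here and were described apart. In a joint clustering of both libraries (leiden method) the Kupffer-gated cells of the groups lay in different clusters: clusters 1 and 9 held 3400 and 399 of the 4589 Ter119 cells, and clusters 0, 3, 6 and 14 held 5503, 1913, 1149 and 547 of the 9641 Saline cells.

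Glycolysis splits glucose into pyruvate in the cytosol. In its hexose phase, glucose is taken up, phosphorylated and cut, which spends ATP, and in its triose phase the resulting 3-carbon sugars are turned into pyruvate, which yields ATP and NADH. Pyruvate is then either reduced to lactate and exported or burned in mitochondria, and macrophages are known to lean on the lactate route when they are activated or short of oxygen. Many of these genes are known targets of the hypoxia-inducible factors, whose core binding letters are ACGTG and GCGTG.

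Promoter windows of some of the genes that were higher in Ter119 Kupffer-gated cells are printed here to show where those letters stand. Each runs from 250 bases before to 50 bases after a start annotated by RefSeq on GRCm38.p6, 5′ to 3′ on the gene's strand, and capitals mark ACGTG or GCGTG on either strand, so that CACGT and CACGC are also in capitals.
Ddit4, chr10:59951721-59952020, minus strand: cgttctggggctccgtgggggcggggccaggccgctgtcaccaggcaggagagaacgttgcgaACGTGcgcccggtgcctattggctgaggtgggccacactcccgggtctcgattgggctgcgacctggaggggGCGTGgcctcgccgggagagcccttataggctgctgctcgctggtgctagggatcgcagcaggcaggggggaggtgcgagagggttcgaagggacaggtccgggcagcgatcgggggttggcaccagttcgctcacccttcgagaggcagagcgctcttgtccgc
Slc16a3, chr11:120948817-120949116, plus strand: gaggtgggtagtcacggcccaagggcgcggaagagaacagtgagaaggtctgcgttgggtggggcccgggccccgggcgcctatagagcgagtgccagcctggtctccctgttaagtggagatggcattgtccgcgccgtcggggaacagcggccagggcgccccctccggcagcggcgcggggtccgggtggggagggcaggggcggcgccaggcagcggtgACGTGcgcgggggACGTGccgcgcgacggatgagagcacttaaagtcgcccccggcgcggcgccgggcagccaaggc
Gapdh, chr6:125165724-125166023, minus strand: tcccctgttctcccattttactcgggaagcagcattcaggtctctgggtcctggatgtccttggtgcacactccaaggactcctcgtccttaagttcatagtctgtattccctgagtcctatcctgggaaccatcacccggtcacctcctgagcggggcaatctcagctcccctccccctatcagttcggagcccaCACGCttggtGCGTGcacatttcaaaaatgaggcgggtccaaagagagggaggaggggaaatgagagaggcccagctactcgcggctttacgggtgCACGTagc
Pgam1, chr19:41911621-41911920, plus strand: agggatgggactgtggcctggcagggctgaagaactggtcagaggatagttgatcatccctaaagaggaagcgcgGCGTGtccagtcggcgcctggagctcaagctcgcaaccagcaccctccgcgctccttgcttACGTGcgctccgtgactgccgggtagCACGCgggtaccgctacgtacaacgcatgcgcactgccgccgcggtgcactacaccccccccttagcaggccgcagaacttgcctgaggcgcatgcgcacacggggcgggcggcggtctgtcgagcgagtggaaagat
Ldha, first of 2 starts, chr7:46845554-46845853, plus strand: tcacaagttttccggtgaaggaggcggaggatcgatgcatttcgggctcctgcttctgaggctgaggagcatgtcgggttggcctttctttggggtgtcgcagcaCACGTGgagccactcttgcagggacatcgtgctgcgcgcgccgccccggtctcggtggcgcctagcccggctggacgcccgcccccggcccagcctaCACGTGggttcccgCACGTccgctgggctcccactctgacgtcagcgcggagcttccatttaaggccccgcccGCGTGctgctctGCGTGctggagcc

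In GENCODE vM21 on GRCm38, Ddit4 (ENSMUSG00000020108) spans 59949669 to 59951834 of chromosome 10, and Slc16a3 (ENSMUSG00000025161) spans 120948480 to 120960868 of chromosome 11. Gapdh (ENSMUSG00000057666) spans 125161715 to 125166467 of chromosome 6, Pgam1 (ENSMUSG00000011752) spans 41911923 to 41918660 of chromosome 19, and Ldha (ENSMUSG00000063229) spans 46841475 to 46855627 of chromosome 7. The windows of Gapdh, Slc16a3 and Ldha lie inside these spans, because the annotations do not use the same first exon. Windows were found for 32 of the 33 genes. The letters ACGTG, on either strand, occurred in a window of 20 of the 32 (62.5%), against 21.8% of 27025 genes with a window. GCGTG occurred in 22 of the 32 (68.8%), against 35.2% of those genes, and CACGTG, which contains ACGTG, in 7 (21.9%), against 8.09%. Every printed window carries ACGTG or GCGTG, but not every higher gene does so in each window. The Tpi1 window and the first Pkm window hold 0 ACGTG and 0 GCGTG, and the second Pkm window holds 2 ACGTG. A match says only that the letters are there, and base composition, expression and windows per gene were not matched. A gene counted if any of its windows had a match, and the 32 genes had 44 windows, the 27025 genes 32851.

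In Kupffer-gated cells of the Ter119 mouse, the triose phase and lactate production took a larger share of all UMIs. The hexose phase genes of the set, which leaves out the aldolase Aldoa, summed to near level. These are shares and not amounts per cell, since Saline cells held more UMIs (median 6737, against 3560 in Ter119). At least 1 UMI of Ldha was found in 64.4% of Ter119 and 62.2% of Saline cells. Of the 33 genes, 20 reached 20 CPM in 1 of the groups, and of these 9 were at least 2-fold higher in Ter119 cells (Tpi1, Gapdh, Pgk1, Pgam1, Eno1, Pkm, Ldha, Slc16a3 and Ddit4). The same size rule took 3.91% of the 6448 genes that passed that minimum. With TMM factors 11 of the 33 genes were higher, where 5.71% of all genes were (5.26% lower), and with median-of-ratios factors also 11, where 5.95% were (5.27% lower). Only Hk1 among the 20 was at least 2-fold lower, where 8.48% of the 6448 genes were. The median log2 ratio of Ter119 over Saline was 0.52 over the 32 genes that had a ratio, and 0.95 over the 20. Over the 6448 genes it was -0.20, which moved to 0.03 or 0.05 under 2 other scalings of the libraries. Without the minimum, 11 of 32 genes were at least 2-fold higher, adding Aldoc and Slc16a1, and 4 were lower, adding Slc2a3, Slc2a6 and Pfkm, where 6.6% and 17.0% of 15022 genes were.

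**Figure D1:**
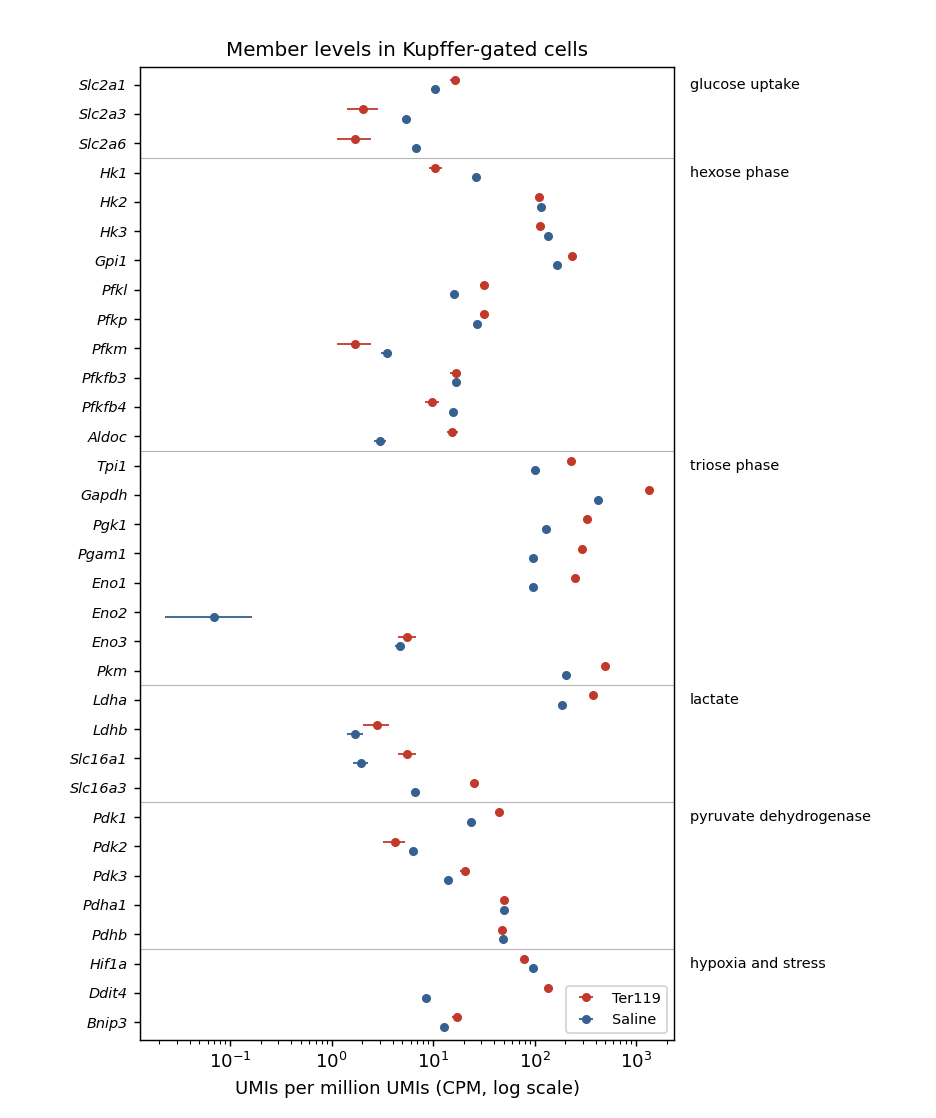
Levels of the 33 genes in Kupffer-gated cells, in CPM on a log axis, in pathway order, with Ter119 above Saline in each row and exact Poisson 95% intervals for counting error. The triose phase points sit to the right in Ter119, with Gapdh at 1345 CPM in Ter119 and 423 CPM in Saline, while Hk2 and Hk3 nearly coincide. Eno2 had 0 UMIs in Ter119 and has no point there.

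Glucose uptake transcripts were few and differed in direction. Slc2a1, the basal glucose transporter of most cells, stood at 16.5 CPM in Ter119 and 10.4 CPM in Saline Kupffer cells, a ratio of 1.59 (exact 95% interval 1.38 to 1.83, counting error only, as for all ratios here). Slc2a3, the high-affinity transporter known from neurons and neutrophils, had 2.06 CPM in Ter119 and 5.48 CPM in Saline. Slc2a6, a transporter of myeloid cells, had 1.69 CPM in Ter119 and 6.86 CPM in Saline, which is 4.05 times lower. The 3 transporters thus differed in direction, and their sum of 20.2 CPM in Ter119 and 22.7 CPM in Saline had a ratio of 0.891 whose interval, 0.790 to 1.00, reached level. Slc2a1 made up 81.4% of these UMIs in Ter119 (76.8 to 85.5%) and 45.6% in Saline (43.2 to 48.1%).

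The hexokinases, which trap glucose by phosphorylation, were dominated by Hk2 and Hk3 in both groups. Hk2, the inducible form, had 110 CPM in Ter119 and 115 CPM in Saline, a ratio of 0.957 (0.909 to 1.01). Hk3, the myeloid form, had 113 CPM in Ter119 and 136 CPM in Saline, a ratio of 0.831 (0.790 to 0.873). Hk1, the housekeeping form, was the member of the hexose phase that lay farthest below level, with 10.5 CPM in Ter119 and 26.2 CPM in Saline, 2.49 times lower. Its share of hexokinase UMIs was 4.50% in Ter119 and 9.45% in Saline. Gpi1, which turns the glucose form of the sugar phosphate into the fructose form, had 232 CPM in Ter119 and 167 CPM in Saline, a ratio of 1.40 (1.35 to 1.45).

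At phosphofructokinase, the committing step, the liver-type subunit Pfkl had 31.9 CPM in Ter119 and 16 CPM in Saline, a ratio of 1.99 (1.79 to 2.21) that sits at the 2-fold line. The platelet-type subunit Pfkp had 32.0 CPM in Ter119 and 27.3 CPM in Saline (ratio 1.17, 1.06 to 1.29), and the muscle-type Pfkm had 1.69 CPM in Ter119 and 3.51 CPM in Saline (ratio 0.483, 0.315 to 0.716). Pfkl and Pfkp were therefore near parity in Ter119, at 48.6% and 48.8% of the step's UMIs, whereas in Saline they held 34.2% and 58.3%. Pfkfb3 and Pfkfb4, whose enzymes set the level of the activator of phosphofructokinase, were at 16.7 and 9.80 CPM in Ter119 and at 17.0 and 15.7 CPM in Saline. Aldoc, an aldolase known from brain, was scarce but had the widest ratio of the phase, with 15.5 CPM in Ter119 and 3.02 CPM in Saline (ratio 5.13, 4.27 to 6.18). Summed, the 10 genes of the hexose phase gave 574 CPM in Ter119 and 527 CPM in Saline, a ratio of 1.09 (1.07 to 1.11). Aldoa, the main aldolase, is not in the set, and with it the sums were 1258 CPM in Ter119 and 780 CPM in Saline, a ratio of 1.61 (1.59 to 1.64).

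Most of the triose phase was higher in Ter119. Summed over its 8 genes it reached 2941 CPM in Ter119 and 1055 CPM in Saline Kupffer cells, a ratio of 2.79 (2.75 to 2.82). Gapdh, which oxidises the triose and makes NADH, gave 22232 UMIs or 1345 CPM in Ter119 and 423 CPM in Saline (ratio 3.18, 3.13 to 3.24). Pgam1, the phosphoglycerate mutase, had 296 CPM in Ter119 and 95.7 CPM in Saline (ratio 3.09, 2.98 to 3.20). The remaining main enzymes lay between 2-fold and 3-fold. Tpi1, which interconverts the 2 trioses, had 227 CPM in Ter119 and 102 CPM in Saline (ratio 2.22). Pgk1, the first ATP-yielding kinase, had 326 CPM in Ter119 and 131 CPM in Saline (ratio 2.49). Eno1, the common enolase, had 248 CPM in Ter119 and 96.2 CPM in Saline (ratio 2.58), and Pkm, the last kinase, had 493 CPM in Ter119 and 203 CPM in Saline (ratio 2.43). The enolases of neurons and muscle did not follow. Eno2 had 0 UMIs in Ter119 and 5 in Saline and has no ratio, and Eno3 had 5.57 CPM in Ter119 and 4.69 CPM in Saline (ratio 1.19, 0.931 to 1.5). Tpi1 and Gapdh share exon sequence with a gene on the opposite strand (Spsb2 and Iffo1), and Pkm with Gm49759 on its own strand. Outside the triose phase, Hk3, Pfkp, Pfkm and Pdha1 do so on the opposite strand, and Hif1a with Gm49321 on its own. The sources used here do not give the strand setting of the counting. Part of the UMIs of all these genes could therefore belong to the genes that overlap them.

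Transcripts for lactate production and export were a larger share of UMIs too. Ldha, the muscle-type lactate dehydrogenase subunit, had 380 CPM in Ter119 and 185 CPM in Saline (ratio 2.06, 2.0 to 2.12), close to the 2-fold line. Ldhb, the heart-type subunit, was scarce in Kupffer cells, with 2.78 CPM in Ter119 and 1.72 CPM in Saline, under 1% of lactate dehydrogenase UMIs in both groups. Slc16a3, the lactate exporter known from glycolytic muscle, had 25.6 CPM in Ter119 and 6.61 CPM in Saline (ratio 3.87, 3.39 to 4.43). Slc16a1, which moves lactate either way, had 5.57 CPM in Ter119 and 1.94 CPM in Saline (ratio 2.87, 2.18 to 3.76). Both transporters were higher, and Slc16a3 held 82.1% of their UMIs in Ter119 (78.5 to 85.3%) and 77.3% in Saline (73.8 to 80.6%).

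Genes of pyruvate dehydrogenase and of its kinases differed less. Pdha1 and Pdhb, the subunits of the first component of pyruvate dehydrogenase, were level within counting error, at 50.4 and 48.3 CPM in Ter119 and 50.5 and 49.0 CPM in Saline. Of the kinases that switch the complex off, Pdk1 had 44.3 CPM in Ter119 and 23.6 CPM in Saline (ratio 1.88, 1.72 to 2.05), and Pdk3 had 20.7 CPM in Ter119 and 14.0 CPM in Saline (ratio 1.48, 1.31 to 1.68). Pdk2 had 4.18 CPM in Ter119 and 6.34 CPM in Saline (ratio 0.658, 0.503 to 0.85). The kinase pool accordingly held 64.0% Pdk1 in Ter119 (61.2 to 66.8%) and 53.7% in Saline (51.9 to 55.5%). The kinases other than Pdk2 were higher, but none reached 2-fold as reported. Over 17 other settings of the processing, Pdk1 passed 2-fold in 3, Pdk2 in 2 and Pdk3 in 1.

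Ddit4 stood far apart from the rest. This inhibitor of the growth kinase mTORC1, known to respond to hypoxia, energy shortage and glucocorticoids, had 2260 UMIs or 137 CPM in Ter119 and 606 UMIs or 8.47 CPM in Saline, a ratio of 16.2 (14.8 to 17.7). Hif1a, the oxygen-regulated transcription factor, which is known to be set mainly through protein stability, had 78.1 CPM in Ter119 and 95.9 CPM in Saline (ratio 0.814, 0.766 to 0.864). Bnip3, a hypoxia-responsive gene of mitophagy, had 17.3 CPM in Ter119 and 12.9 CPM in Saline (ratio 1.34, 1.17 to 1.54). The 3 hypoxia and stress genes were thus not alike.

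**Figure D2:**
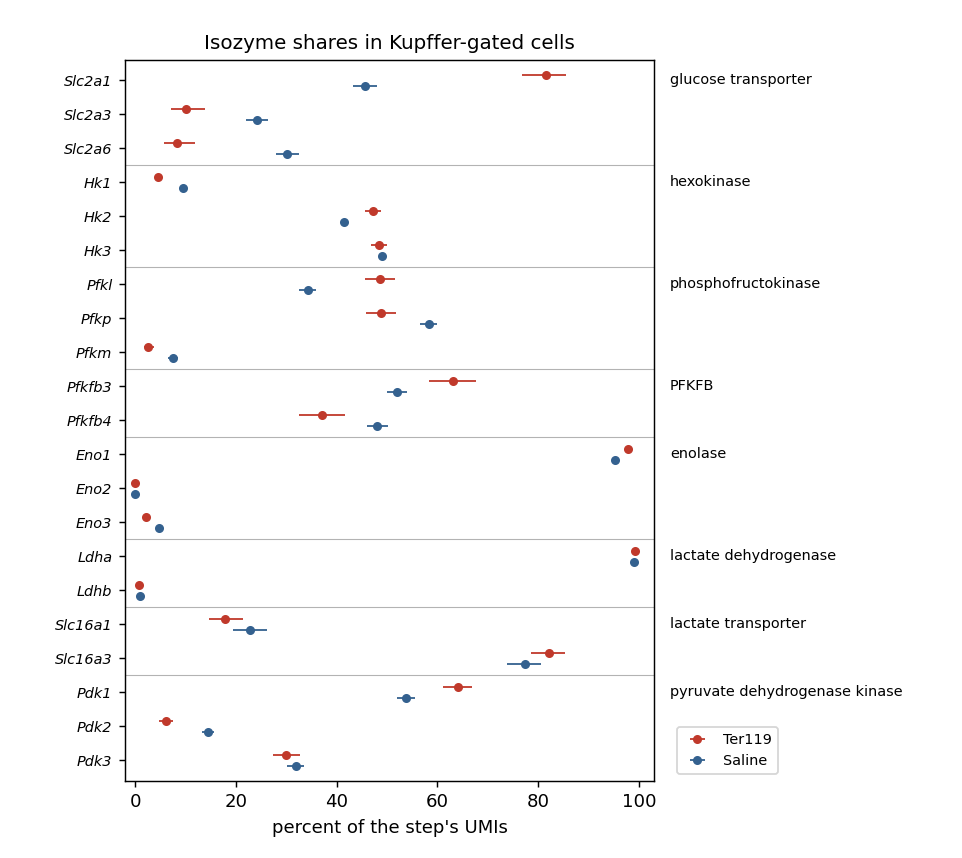
Share of each isozyme in the summed UMIs of its step in Kupffer-gated cells, in percent, with Ter119 above Saline in each row and exact binomial 95% intervals. Shares within a step do not depend on library scaling. The widest gaps are at the glucose transporters, where Slc2a1 holds 81.4% in Ter119 and 45.6% in Saline, and at phosphofructokinase, where Pfkl holds 48.6% in Ter119 and 34.2% in Saline.

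To compare single cells at equal depth, every Kupffer-gated cell was thinned to 1000 UMIs. The 8 triose phase genes then gave a mean of 2.89 UMIs per cell in Ter119 (median 3) and 1.02 in Saline (median 1). No UMI of the 8 genes was left in 8.59% of Ter119 and 38.5% of Saline cells, and at least 3 were left in 52.1% of Ter119 and 9.59% of Saline cells. The whole distribution was thus displaced. After thinning, Gapdh was found in 68.2% of Ter119 and 31.3% of Saline cells, Pgam1 in 25.4% of Ter119 and 8.81% of Saline cells, and Ldha in 29.8% of Ter119 and 16.3% of Saline cells. Hk2 was found in 10.7% of Ter119 and 10.1% of Saline cells. Ddit4 was found in 12.8% of Ter119 (11.9 to 13.8%) and 0.861% of Saline cells, where the unthinned shares were 33.9% in Ter119 and 5.11% in Saline. Thinned endothelial-gated cells held Ddit4 in 3.71% of Ter119 and 1.07% of Saline cells. No gated type is sure to lack these common enzymes. The myeloid gene Hk3, thinned likewise, was in 2.5% of Ter119 and 2.30% of Saline endothelial-gated cells (median 1396 and 3612.5 UMIs before thinning), against 10.7% of Ter119 and 12.0% of Saline Kupffer-gated cells. The endothelial shares of Hk3 were taken as the scale of UMIs from free RNA or mixed barcodes, and 16 of the 33 genes lay at or below it in both groups of Kupffer-gated cells. These are the 3 glucose transporters, Hk1, Pfkm, Pfkfb3, Pfkfb4, Aldoc, Eno2, Eno3, Ldhb, Slc16a1, Slc16a3, Pdk2, Pdk3 and Bnip3, and in Saline Ddit4 and Pfkl joined them. Their shares are not read as expression in single cells, and their CPM and ratios describe the RNA summed over the gate, which can include free RNA. Because the scale comes from Hk3 alone, a scarce gene can fall below it whatever the source of its UMIs.

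**Figure D3:**
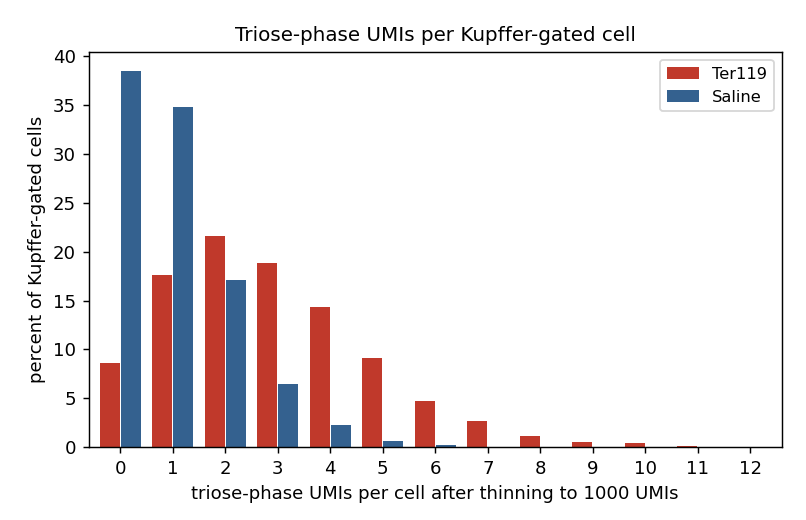
UMIs of the 8 triose phase genes per Kupffer-gated cell after thinning to 1000 UMIs, as percent of the 4589 Ter119 and 9641 Saline cells. The Ter119 bars peak at 2 UMIs, and the Saline bars at 0, where 8.59% of Ter119 and 38.5% of Saline cells lie.

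Within the Ter119 library the summed triose phase level differed little across the splits of Kupffer barcodes made here. In the 3257 hemoglobin-rich barcodes, with hemoglobin UMIs left out, the triose phase stood at 2872 CPM, against 2958 CPM in the other 4589 Kupffer-gated cells, a ratio of 0.971 (0.957 to 0.984). Ddit4 stood at 130 CPM in the hemoglobin-rich barcodes and 138 CPM in the others (ratio 0.948, 0.888 to 1.01). Cells with a UMI of Gpnmb, a lysosomal membrane gene of loaded macrophages, numbered 2865, and 1724 cells had none, with medians of 4092 and 2480 UMIs. The triose phase stood at 3010 CPM with Gpnmb and 2772 CPM without (ratio 1.09, 1.06 to 1.11), and among cells of 3000 to 6000 UMIs the ratio was 1.10 (1.07 to 1.13). In that depth range Bnip3 had 18.6 CPM with Gpnmb and 11.9 CPM without (ratio 1.57, 1.06 to 2.38). Over cells of all depths its ratio was 1.28 (0.976 to 1.71), which reached level. Pfkl had a ratio of 1.46 (1.11 to 1.96) in the depth range and 1.24 (1.01 to 1.52) over all depths. Ddit4 had 135 CPM with and 137 CPM without Gpnmb in the depth range. These splits compare cells of 1 mouse, which are not replicates.

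The difference in the triose phase was also present when depth and mitochondrial share were held within limits. Its log2 ratio of 1.48 over all Kupffer-gated cells was 1.44, 1.43 and 1.30 in cells with at most 5%, 5 to 10% and 10 to 15% mitochondrial UMIs. In cells of 3000 to 6000 UMIs it was 1.68. Hemoglobin genes made up 0.584% of UMIs in Ter119 and 0.00255% in Saline Kupffer-gated cells, and leaving them out gave 1.49.

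Other cell types of the same livers showed the triose difference as well. Endothelial-gated cells (1079 Ter119, 652 Saline) summed to 1896 CPM in Ter119 and 705 CPM in Saline, a ratio of 2.69 (2.53 to 2.85). These cells also clustered apart: 995 of the Ter119 cells lay in cluster 5, whose mean passed more than 1 gate, and 15 in the endothelial cluster 24, against 455 of the Saline cells in the endothelial cluster 15 and 190 in cluster 12, whose mean passed more than 1 gate. The ratio was 1.57 (1.5 to 1.63) in monocyte-gated cells, with 3921 CPM in Ter119 and 2501 CPM in Saline. It was 1.60 (1.46 to 1.76) in dendritic-gated cells, with 2195 CPM in Ter119 and 1370 CPM in Saline. In all these types the sum was higher in Ter119. Monocyte-gated cells lay mostly in cluster 7 in Ter119 (411 cells) and cluster 16 in Saline (239), dendritic-gated cells in the unnamed cluster 4 in Ter119 (124) and cluster 16 in Saline (68). Neutrophil-gated cells had 3100 CPM in Ter119 and 1667 CPM in Saline (ratio 1.86, 1.69 to 2.04), and lay mostly in clusters 11 and 8 in Ter119 (84 and 65 cells) and cluster 18 in Saline (243). T or NK-gated cells had 2712 CPM in Ter119 and 1355 CPM in Saline (ratio 2.0, 1.71 to 2.35), and B or plasma-gated cells had 2065 CPM in Ter119 and 910 CPM in Saline (ratio 2.27, 1.89 to 2.72). The erythroid gate took 1118 Ter119 and 0 Saline cells, and there the sum was 1725 CPM. With hemoglobin UMIs, 45.2% of all in these cells, left out, it was 3148 CPM, against 2958 CPM in Ter119 Kupffer-gated cells counted likewise. The erythroid-gated cells held a median of 8 of 14 Kupffer markers and 5 of 12 erythroid markers. Kupffer markers made up a median of 76.0 UMIs per 10000 there, with hemoglobin counted, so the sum need not be that of erythroid cells. Kupffer markers were present in every other gate, at a median of 39.1 to 76.0 UMIs per 10000 in Ter119 and 20.2 to 68.7 in Saline, against 275 in Ter119 and 398 in Saline Kupffer-gated cells. The part of that RNA in the sums and ratios of the other types was not tested.

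**Figure D4:**
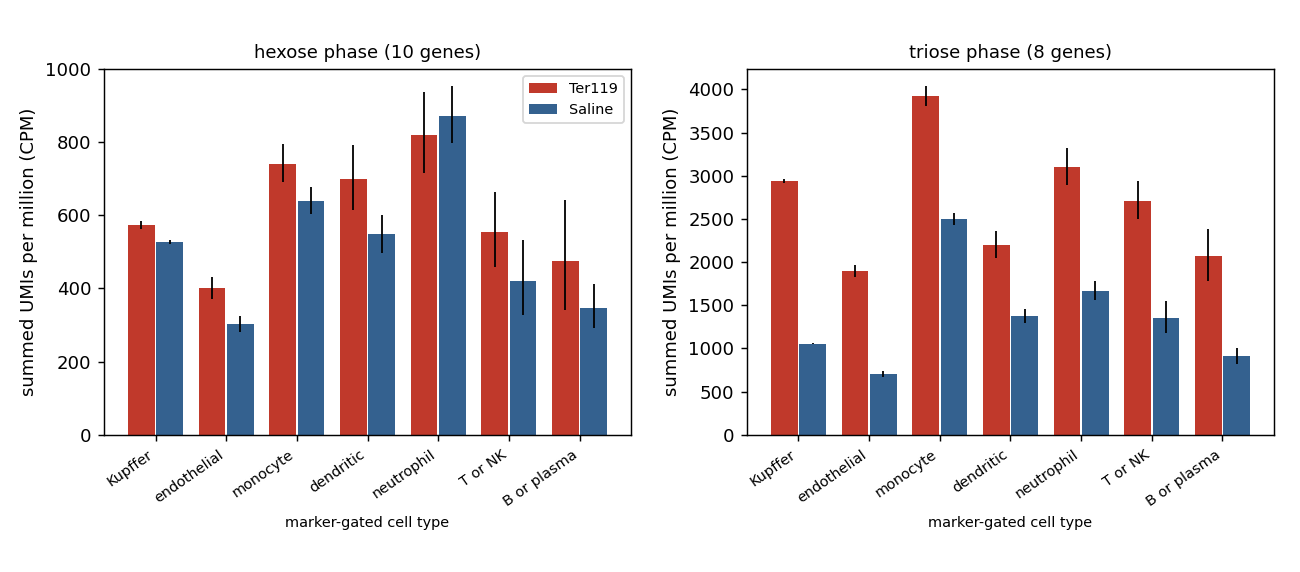
Summed levels of the 10 hexose phase genes (left) and the 8 triose phase genes (right) by gated cell type, in CPM, with Ter119 left of Saline and exact Poisson 95% intervals for counting error. The triose sum is higher in Ter119 in each of the 7 types, for example 1896 CPM in Ter119 and 705 CPM in Saline endothelial-gated cells, while the hexose sums, without Aldoa, lie closer together. The axes of the panels differ.

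In endothelial-gated cells 21 of the 33 genes passed the minimum, and 7 of them were at least 2-fold higher (Tpi1, Gapdh, Pgk1, Eno1, Pkm, Ddit4 and Bnip3), where 3.55% of 7268 genes were. None of the 21 was at least 2-fold lower, where 3.78% of the 7268 were. Eno1 had 131 CPM in Ter119 and 38.7 CPM in Saline (ratio 3.39, 2.65 to 4.37). Ddit4 had 40.3 CPM in Ter119 and 10.4 CPM in Saline (ratio 3.88, 2.42 to 6.41), and Bnip3 had 60.7 CPM in Ter119 and 25.4 CPM in Saline (ratio 2.40, 1.73 to 3.35). Endothelial-gated cells also differed from Kupffer-gated cells in isozyme shares. Ldhb had 43.3 CPM in Ter119 and 81.5 CPM in Saline (ratio 0.531, 0.4 to 0.7), so that its share of lactate dehydrogenase UMIs was 15% in Ter119 and 34.8% in Saline. Slc16a1 held 43.9% of the lactate transporter UMIs in Ter119 and 71.7% in Saline, on 41 and 46 UMIs.

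In monocyte-gated cells (587 Ter119, 244 Saline) 26 genes passed, and Pdk1 and Bnip3 were at least 2-fold higher, where 2.57% of 6150 genes were. None was at least 2-fold lower, where 3.22% were. Pdk1 had 29.0 CPM in Ter119 and 12.0 CPM in Saline (ratio 2.42, 1.36 to 4.37), and Bnip3 had 55.2 CPM in Ter119 and 20.1 CPM in Saline (ratio 2.75, 1.80 to 4.25). Monocytes held much of the pathway at a high level in both groups: Slc16a3 had 107 CPM in Ter119 and 85.9 CPM in Saline, and Eno3 had 84.2 CPM in Ter119 and 93.0 CPM in Saline. Ddit4 had 76.0 CPM in Ter119 and 50.6 CPM in Saline (ratio 1.5, 1.11 to 2.04), so its Saline level was above that of Saline Kupffer cells. In dendritic-gated cells (125 Ter119, 79 Saline) 21 genes passed, of which Hk3, Pfkl and Pfkp were at least 2-fold higher, where 3.48% of 6064 genes were. Pfkfb3, Pfkfb4 and Eno3 were at least 2-fold lower, where 7.95% were. Hk3 rested on 20 UMIs in Ter119 and 6 in Saline, and Kupffer markers stood at 39.1 UMIs per 10000 in these Ter119 cells and 20.2 in the Saline cells.

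Neutrophil-gated cells (158 Ter119, 244 Saline) differed in both directions. Of 19 genes that passed, 5 were at least 2-fold higher (Gapdh, Pgk1, Pgam1, Eno1 and Ldha), where 13% of 4648 genes were, and 5 were at least 2-fold lower (Slc2a3, Slc2a6, Pfkfb4, Slc16a3 and Bnip3), where 22.3% were. Slc2a3, the main glucose transporter here, had 145 CPM in Ter119 and 316 CPM in Saline (ratio 0.460, 0.316 to 0.653). Pfkfb4 had 52.2 CPM in Ter119 and 187 CPM in Saline (ratio 0.280, 0.148 to 0.491), and Slc2a6 had 14.9 CPM in Ter119 and 88.9 CPM in Saline on 4 and 50 UMIs. The share of lower genes among the 19 was thus near that of all genes in this gate. In Ter119, monocyte markers reached 3835 CPM in these cells, against 844 CPM in Saline, and 398 Ter119 and 5 Saline barcodes that passed both gates had been left out. With those barcodes kept, Slc2a3 had 82.9 CPM in Ter119 and 296 CPM in Saline, and Pfkfb4 had 39.9 CPM in Ter119 and 174 CPM in Saline.

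In T or NK-gated cells (109 Ter119, 27 Saline) 12 genes passed, with Gapdh and Ddit4 at least 2-fold higher, where 7.73% of 3093 genes were, and Pdha1 at least 2-fold lower, where 8.86% were. In B or plasma-gated cells (40 Ter119, 69 Saline) 11 passed, with Gapdh, Pgk1, Pgam1 and Ldha at least 2-fold higher, where 6.48% of 3488 genes were. None was at least 2-fold lower, where 15% were. Gapdh was the single gene past 2-fold in Kupffer, endothelial, neutrophil, T or NK and B or plasma-gated cells alike, and it had 1771 CPM in Ter119 and 989 CPM in Saline monocyte-gated cells (ratio 1.79, 1.68 to 1.91).

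**Figure D5:**
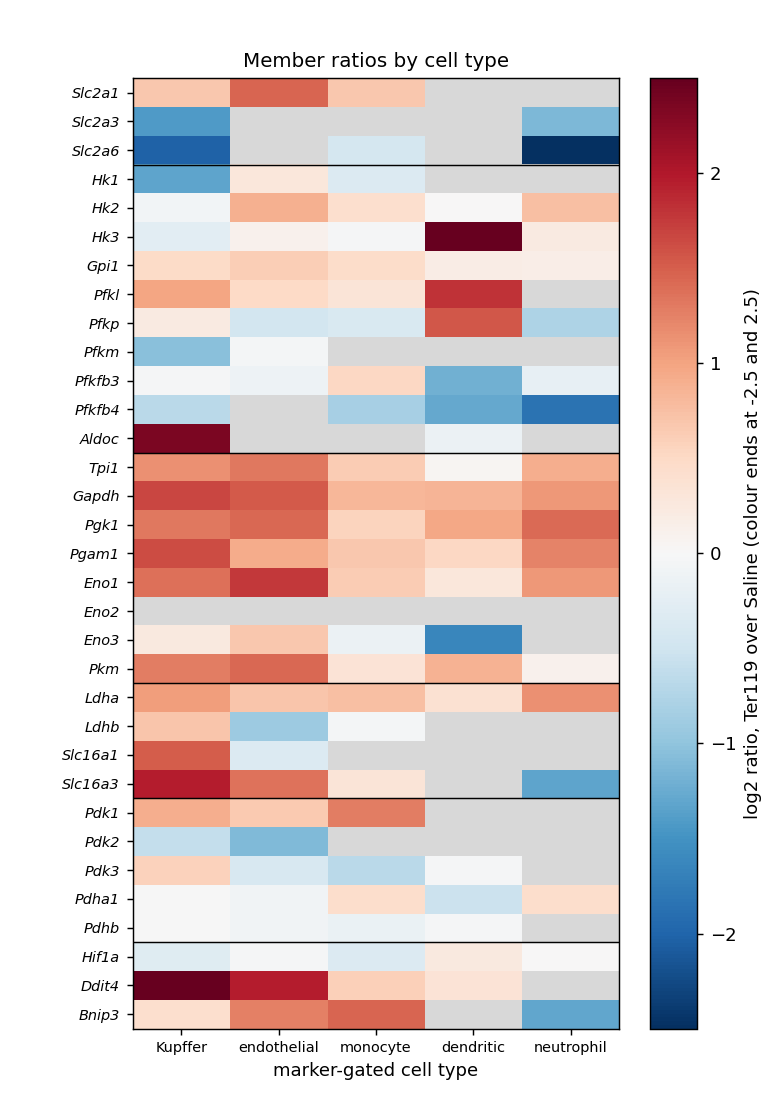
Log2 ratio of Ter119 over Saline for the 33 genes in 5 gated cell types, as colour (red higher in Ter119, blue lower), in pathway order; grey marks genes without enough UMIs for a ratio. The triose phase rows Gapdh to Eno1 are red across the types, while Slc16a3 is red in Kupffer cells (1.95) and blue in neutrophils (-1.31).

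Genes next to the pathway were taken from lists set by name. Among other glycolysis genes, 5 of 21 entries passed the minimum in Kupffer-gated cells. Of these, 1 was at least 2-fold higher and 2, Adpgk among them, were at least 2-fold lower (median log2 ratio -0.69). Aldoa was at least 2-fold higher, with 684 CPM in Ter119 and 253 CPM in Saline (ratio 2.71, 2.64 to 2.77). Adpgk, an ADP-dependent glucokinase, had 45.3 CPM in Ter119 and 108 CPM in Saline, and Gpd2, of the glycerol phosphate shuttle, had 24.0 CPM in Ter119 and 38.8 CPM in Saline. None of 9 other hexose transporters passed. Of 4 gluconeogenesis genes that passed, 3 were at least 2-fold lower: Pck1 had 7.02 CPM in Ter119 and 93.8 CPM in Saline, Fbp1 had 3.87 CPM in Ter119 and 41.6 CPM in Saline, and Pcx had 2.18 CPM in Ter119 and 20.5 CPM in Saline. Hepatocyte markers summed to 898 CPM in Ter119 and 3244 CPM in Saline Kupffer-gated cells, a smaller fold than for the 3 lower genes. Pck1 was also lower in endothelial-gated cells, with 10.2 CPM in Ter119 and 69.4 CPM in Saline. The part of hepatocyte RNA in these values was not tested. G6pc3, the widely expressed glucose phosphatase, had 28.2 CPM in Ter119 and 16.3 CPM in Saline.

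All 9 pentose phosphate genes passed and none differed 2-fold (median log2 ratio 0.22). G6pdx, the first enzyme of that route, had 110 CPM in Ter119 and 64.2 CPM in Saline, Taldo1 had 735 CPM in Ter119 and 459 CPM in Saline, Pgd had 241 CPM in Ter119 and 174 CPM in Saline, and Rpia had 13.1 CPM in Ter119 and 22.4 CPM in Saline. Of 8 glycogen genes that passed, Gyg, which primes glycogen synthesis, was at least 2-fold higher, with 62.9 CPM in Ter119 and 23.6 CPM in Saline, and none was lower. The phosphorylases Pygl and Pygb had 98.9 and 46.2 CPM in Ter119 and 151 and 67.6 CPM in Saline, and Pgm1 had 15.2 CPM in Ter119 and 21.0 CPM in Saline. Among 4 further lactate and pyruvate transport genes that passed, Mpc1, a subunit of the mitochondrial pyruvate carrier, was at least 2-fold higher, with 106 CPM in Ter119 and 50.0 CPM in Saline (ratio 2.12, 2.0 to 2.25), and Slc16a7, a pyruvate transporter, was lower, with 20.9 CPM in Ter119 and 43.8 CPM in Saline. Mpc2, the partner of Mpc1, had 114 CPM in Ter119 and 102 CPM in Saline. Bsg, the chaperone of the lactate transporters, had 257 CPM in Ter119 and 272 CPM in Saline. The further pyruvate dehydrogenase genes Dlat and Dld had 28.0 and 45.3 CPM in Ter119 and 32.9 and 42.1 CPM in Saline.

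Of 13 further genes of the hypoxia pathway that passed, none was at least 2-fold higher and 1 was lower, and their median log2 ratio of -0.25 lay near the -0.20 of all genes. The lower gene was Adm, the vasodilator peptide gene, with 3.93 CPM in Ter119 and 26.7 CPM in Saline (ratio 0.148, 0.113 to 0.189). Egln2, an oxygen sensor, had 32.6 CPM in Ter119 and 57.1 CPM in Saline, Epas1 had 15 CPM in Ter119 and 25.6 CPM in Saline, and Vhl had 13.4 CPM in Ter119 and 20.3 CPM in Saline. Of 10 energy and nutrient sensing genes that passed, 4 were at least 2-fold lower and none higher. Txnip, which restrains glucose uptake, had 112 CPM in Ter119 and 573 CPM in Saline (ratio 0.195, 0.186 to 0.204), and it was also lower in endothelial-gated cells, with 548 CPM in Ter119 and 1393 CPM in Saline. Its relative Arrdc4 had 8.11 CPM in Ter119 and 23.3 CPM in Saline, Myc had 12.3 CPM in Ter119 and 27.9 CPM in Saline, and the stress gene Sesn1 had 41.3 CPM in Ter119 and 88.2 CPM in Saline. These counts stand beside the 3.91% and 8.48% of all genes given above for Kupffer-gated cells.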

How the data were processed

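Single-cell RNA was measured in 2 libraries, 1 Ter119 and 1 Saline. The authors deposited a UMI count matrix for each sample, not normalized, which the file headers credit to Cell Ranger 6.0.2. The submitters' processing notes name DESeq2 1.26.0, Seurat 3.2.3, Scanpy 1.7.0, Cell Ranger 4.0.0 and GRCm38.p6. The sources used here do not give how hashtags separated the mice.

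From these counts, cells needed 1000 UMIs, 500 detected genes and no more than 15% mitochondrial UMIs. A cell was gated to a type with at least 3 of its markers and, per 10000 UMIs, at least 140 marker UMIs for Kupffer cells, 50 for endothelial cells, 40 for monocytes, 100 for neutrophils, 300 for erythroid cells and 15 for dendritic, T or NK and B or plasma cells. The thresholds were set at valleys of the marker shares after seeing them. No doublet caller was run; barcodes that passed more than 1 gate were left out (4790 Ter119, 389 Saline), as were those that passed none (1251 Ter119, 227 Saline). The 33 genes and the neighbouring lists were chosen with earlier results of these data known. All 33 genes are named, and up to 4 genes per neighbouring list with the largest absolute log2 ratio among those with at least 20 CPM in 1 sample, of which 1 is not reported here.

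Counts were summed per sample and type and given as CPM. UMIs were counted at 3′ ends, so no length scaling was made. Genes with 20 CPM in 1 sample and 20 UMIs over both were compared by a 2-fold size rule. Exact 95% intervals were conditional binomial for ratios of Ter119 over Saline, Poisson for levels and Clopper-Pearson for shares. They cover counting error only. For a count of 0 the floor was 3 counts. The interval script was tested on simulated counts. The software was R 4.3.3 with edgeR 4.0.16 (TMM factors only) and python 3.11.15 with leidenalg 0.10.2, scanpy 1.11.5, pandas 2.3.3, scipy 1.17.1 and numpy 2.4.6. Genes were placed by GENCODE vM21 on GRCm38.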

Additional observations from a re-analysis of the deposited data

Results flagged for a closer look

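The log2 ratio of Ter119 over Saline for Slc16a3, the lactate exporter, was 1.95 in Kupffer-gated cells and -1.31 in neutrophil-gated cells, so the directions were opposite. In neutrophil-gated cells it had 89.5 CPM in Ter119 and 222 CPM in Saline, on 24 and 125 UMIs. Bnip3, the mitophagy gene, had a log2 ratio of 1.46 in monocyte-gated cells and -1.29 in neutrophil-gated cells, where it had 26.1 CPM in Ter119 and 64.0 CPM in Saline, on 7 and 36 UMIs. With barcodes that passed both the neutrophil and the monocyte gate kept, the neutrophil log2 ratios were -1.78 for Slc16a3 and -1.86 for Bnip3. Neither difference between cell types was tested, since each rests on 1 mouse per group.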

How the results depend on the processing

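No paired analysis was possible because each group has 1 sample. Over 17 other settings, between 8 and 11 of the 33 genes were at least 2-fold higher in Ter119 Kupffer-gated cells (9 as reported), and 1 was lower, except for 4 with no minimum CPM. The triose sum had a log2 ratio of 1.30 to 1.71 and the hexose sum 0.03 to 0.35. With TMM factors 364 of all genes (5.71%) were higher and 335 (5.26%) lower, with median-of-ratios factors 394 (5.95%) and 349 (5.27%), where 252 and 547 were reported, and 11 of the 33 were higher under both. With no minimum CPM, 992 of all genes were higher and 2550 lower. Ldha stayed past 2-fold in 14 and Tpi1 in 16 of the 17 settings. Pfkl passed it in 9, Pdk1 in 3, Pdk2 in 2 and Pdk3 in 1. Settings turned the sign for Hk2 (5), Pdha1 (5), Pdhb (3), Pfkfb3 (7) and Eno3 (4), and in none for the others.

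Some isozyme shares left their counting interval, and the cause was not tested. With at most 5% mitochondrial UMIs, Hk1 was 9.03% and Slc16a3 82.2% in Saline. Slc2a1 in Ter119 was 86.3% with the stricter gate and 86.2% with leiden clusters. In thinned cells Hk1 was 3.78% in Ter119 and 8.65% in Saline, Slc2a1 74.7% in Ter119, and Pfkl 30.9% and Slc16a3 69.3% in Saline. With 5 to 10% mitochondrial UMIs, Hk1 was 9.91% in Saline. With 10 to 15%, Slc2a1 was 94.1% in Ter119, Ldhb 1.87% in Ter119 and 1.23% in Saline, and in Saline Hk1 was 7.89%, Pfkl 31.2%, Slc16a3 71.1% and Pdk1 57.5%. In cells of 3000 to 6000 UMIs Ldhb was 1.17% in Saline. The triose log2 ratio was 1.20 with the stricter gate in neutrophils (0.89 as reported) and 0.76 with at most 5% mitochondrial UMIs in T or NK cells (1.00 as reported). Leiden clusters gave no dendritic, neutrophil, T or NK and B or plasma values, the stricter gate none for T or NK, and the 5% limit none for B or plasma cells, each for want of cells. Hemoglobin-rich barcodes, mitochondrial bins, the depth range and the neutrophil overlap were added after seeing the data. Depth limits Slc2a3, Slc2a6, Pfkm, Ldhb and Eno2 most.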
